A study of Rattus norvegicus with 43 samples.

Results

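The genes described here drive DNA replication and cell division. They are 45 genes listed by name for their textbook roles in S phase and mitosis. The list uses no measured value as a rule, but it was drawn up with earlier results of these data known. Of the 45 genes, 42 had a probe set assigned to that gene alone, among 14217 genes tested on the array. Tpx2 and Cdc6 had no such probe set, and Rrm2 was covered by probe sets shared with a second gene. Of the 42 genes measured, 18 act at G1/S or in S phase and 24 act in G2 or mitosis.

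The study followed rat primary hepatocytes (RPH) as they were taken from the liver and kept in culture. Hepatocytes were isolated from 3 untreated male Sprague Dawley rats, and each rat gave a sample to every group. The groups were liver (a lobe tied off before the perfusion), RPH at 0 h (the freshly isolated cell pellet) and RPH after 4, 24 and 48 h in culture. Culture medium was William's E with insulin, transferrin and dexamethasone, with fetal bovine serum for the early 4 h and serum free afterwards. Messenger RNA was measured on Affymetrix RG230-2 arrays, with up to 3 technical arrays per rat and group (43 arrays, 15 samples after averaging, n = 3 rats per group). Values are MAS5 signals, a linear brightness scale on which every array has the same trimmed mean, so they are relative to the other RNA of the sample and give no transcript number per cell. The age of the rats was not given in the sources used here.

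Most hepatocytes of an adult rat liver rest outside the cell cycle and can re-enter it after tissue loss. Entry into S phase is driven by cyclin E with Cdk2 and by the E2F transcription factors, which act on genes for nucleotide synthesis, for the Mcm helicase and for the replication fork. Cyclin A and cyclin B with Cdk1 then drive mitosis, the spindle checkpoint holds the anaphase promoting complex until chromosomes are attached, and a later set of genes builds the spindle and the cleavage furrow. Transcription of the mitotic set is known to depend on the CHR element, bound by the DREAM and MuvB complexes, together with CCAAT boxes bound by NF-Y.

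These elements were searched for in RefSeq promoter windows (build GRCr8) that run from 250 bases before to 50 bases after the annotated start. The windows of 36 of the 45 listed genes were in the table used. The E2F element was searched as TTTCCCGC, TTTGGCGC, TTTCGCGC and TTTGCCGC, the CHR as TTTGAA and TTCGAA, and the NF-Y box as CCAAT, each on both strands. An E2F match was present in 9 of 16 S phase windows (56.2%) and in 1 of 20 G2 and M windows (5%), against 2.14% of all 33469 promoters of the same length. For the CHR the order was the other way round: 15 of 20 G2 and M windows (75%) and 3 of 16 S phase windows (18.8%) held a match, against 19.7% of all promoters. At least 2 CCAAT matches were found in 12 of 20 G2 and M windows (60%) and in 5 of 16 S phase windows (31.2%), against 11.2% of all promoters. A match is a description of the letters in the window and not a bound site. The 5 promoters below are shown because their genes carry both time courses described next: Cdk1, Mki67 and Pttg1 for the mitotic set, Mcm3 and Tyms for the S phase set. Each is written 5′ to 3′ on the strand of the gene, and capitals mark the E2F, CHR and CCAAT matches on either strand.
Cdk1 promoter, GRCr8 chr20:19265043-19265342, plus strand: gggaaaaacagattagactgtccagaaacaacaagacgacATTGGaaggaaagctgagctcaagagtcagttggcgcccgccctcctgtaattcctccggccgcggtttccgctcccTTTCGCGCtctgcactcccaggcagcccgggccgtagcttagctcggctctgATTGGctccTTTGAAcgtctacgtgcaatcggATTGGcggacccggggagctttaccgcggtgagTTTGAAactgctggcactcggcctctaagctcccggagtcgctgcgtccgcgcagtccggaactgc
Mki67 promoter, GRCr8 chr1:199952544-199952843, minus strand: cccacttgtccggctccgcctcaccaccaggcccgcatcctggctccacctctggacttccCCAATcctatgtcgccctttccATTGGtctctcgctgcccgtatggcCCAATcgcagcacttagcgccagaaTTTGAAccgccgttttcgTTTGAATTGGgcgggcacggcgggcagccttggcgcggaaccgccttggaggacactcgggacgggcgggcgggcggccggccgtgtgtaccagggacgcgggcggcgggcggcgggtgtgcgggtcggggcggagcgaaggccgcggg
Pttg1 promoter, GRCr8 chr10:28406277-28406576, minus strand: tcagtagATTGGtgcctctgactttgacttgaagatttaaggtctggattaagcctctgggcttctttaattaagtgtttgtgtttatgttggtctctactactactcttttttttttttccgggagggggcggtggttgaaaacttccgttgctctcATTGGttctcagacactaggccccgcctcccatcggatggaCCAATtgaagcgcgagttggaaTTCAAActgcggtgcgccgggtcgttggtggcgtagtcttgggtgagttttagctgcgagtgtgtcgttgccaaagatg
Mcm3 promoter, GRCr8 chr9:30733697-30733996, minus strand: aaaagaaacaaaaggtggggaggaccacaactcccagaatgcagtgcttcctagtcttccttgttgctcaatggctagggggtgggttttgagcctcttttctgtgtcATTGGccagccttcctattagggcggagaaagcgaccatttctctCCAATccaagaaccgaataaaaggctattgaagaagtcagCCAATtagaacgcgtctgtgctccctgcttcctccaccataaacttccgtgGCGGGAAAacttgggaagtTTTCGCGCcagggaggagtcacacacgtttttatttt
Tyms promoter, GRCr8 chr9:120776034-120776333, minus strand: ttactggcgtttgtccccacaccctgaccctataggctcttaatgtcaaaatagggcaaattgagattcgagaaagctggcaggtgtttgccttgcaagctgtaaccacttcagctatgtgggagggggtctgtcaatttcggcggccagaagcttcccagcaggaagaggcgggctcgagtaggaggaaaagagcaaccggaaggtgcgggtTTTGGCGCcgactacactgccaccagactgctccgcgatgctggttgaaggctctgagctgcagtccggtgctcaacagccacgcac
The Cdk1 window held 3 CCAAT matches, 2 CHR matches and 1 E2F match. In the Mki67 window the second CHR match shares a base with the last CCAAT match, so that they appear as 1 run of capitals. The Pttg1 window held 3 CCAAT matches and 1 CHR match, which is TTTGAA on the opposite strand and appears as TTCAAA on the printed strand. The Mcm3 window held 3 CCAAT matches upstream and 2 E2F matches near the start, and the Tyms window 1 E2F match.

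**Figure D1:**
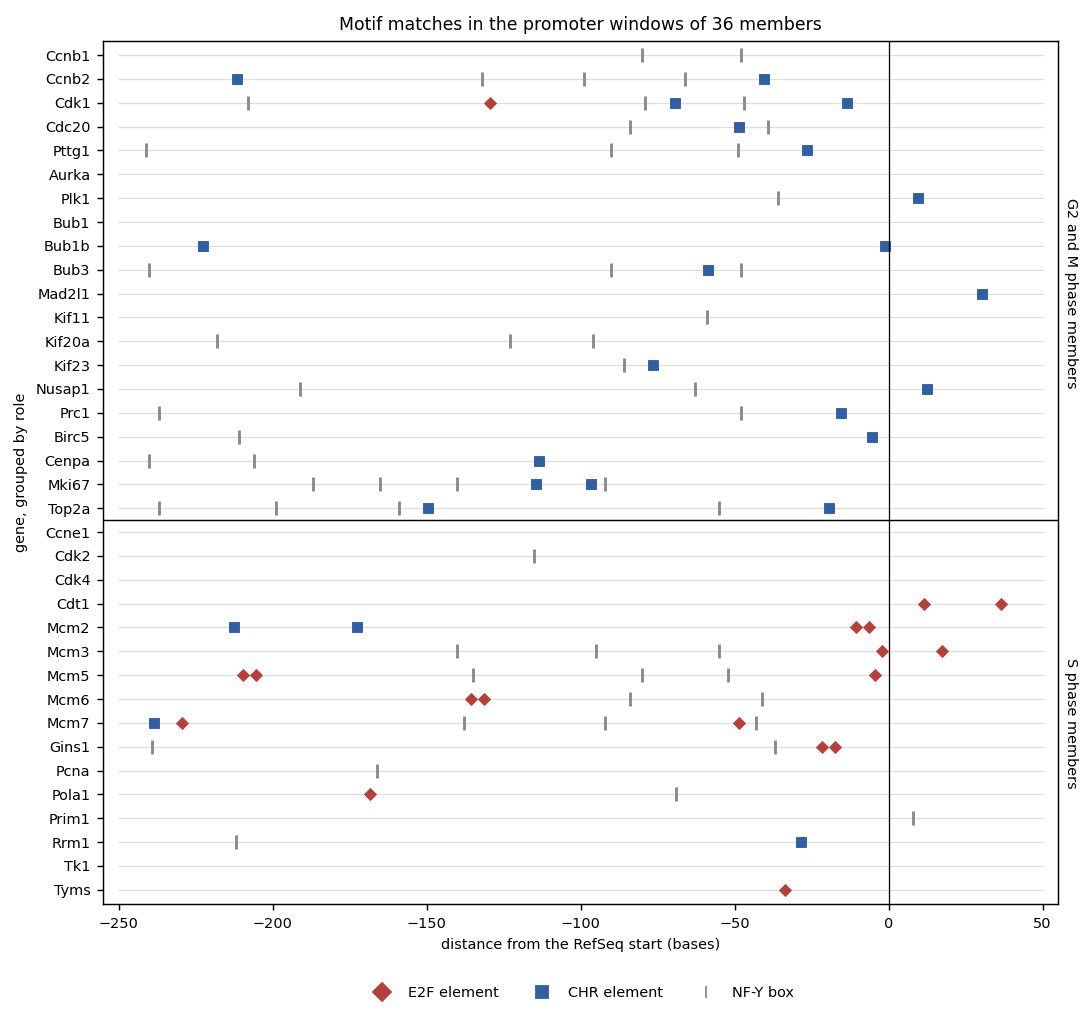
Position of each E2F (red diamond), CHR (blue square) and NF-Y box (CCAAT, grey bar) match in the promoter windows of 36 members; the x axis is the distance in bases from the RefSeq start, and each row is a gene. CHR matches lie in 15 of 20 G2 and M windows, and E2F matches in 9 of 16 S phase windows.

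Many members were dim on these arrays, most of all at 4 h and 24 h. In liver, at 0 h and at 48 h the median member mean (157, 140 and 137) was above the array median (127, 96.8 and 98.1). At 4 h and 24 h it was below (75.2 and 80, against 88.7 and 94.3). Array medians ranged from 79.7 to 145, and 27 of 42 members had a group mean under the array median at 4 h, against 18 in liver, 13 at 0 h, 23 at 24 h and 12 at 48 h. Dim signals follow each array's background, so 32 was added to every signal before taking log2, and all log2 fold changes below are on that scale, which understates the change of dim genes. The median SD between rats was 0.300 for members and 0.246 for all genes, and between technical arrays 0.265 and 0.217. The actin 3′/5′ ratio, which rises as RNA is degraded or labelled incompletely, ranged from 3.21 to 6.96 in liver, from 3.16 to 4.30 at 0 h, from 2.85 to 3.12 at 4 h, from 2.23 to 2.50 at 24 h and from 1.95 to 2.46 at 48 h. Its part in the changes below was not tested. Samples of the same rat deviated from their group means in the same direction in all 18 pairs of cell samples (lowest correlation over genes 0.22), whereas over all 30 same-rat pairs, livers included, the lowest was -0.14. The livers thus followed their rat less closely than the cell samples did. The tests below do not use the rat label, and results against liver are also given without single livers.

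The members followed 2 main time courses. Means of most mitotic genes were high in liver and in the 0 h pellet, lower at 4 h and 24 h, and higher again at 48 h. Many S phase genes were lowest at 4 h and above that level at 24 h. In bulk samples, fewer cells of a type and less RNA per cell cannot be told apart. Among the 24 G2 and M members, 15 had their lowest cell mean at 24 h, 8 at 4 h and 1 at 0 h. Among the 18 S phase members, 11 had it at 4 h, 5 at 48 h, 1 at 24 h and 1 at 0 h. The highest cell mean was at 0 h for 16 G2 and M members and at 48 h for 8 S phase members.

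**Figure D2:**
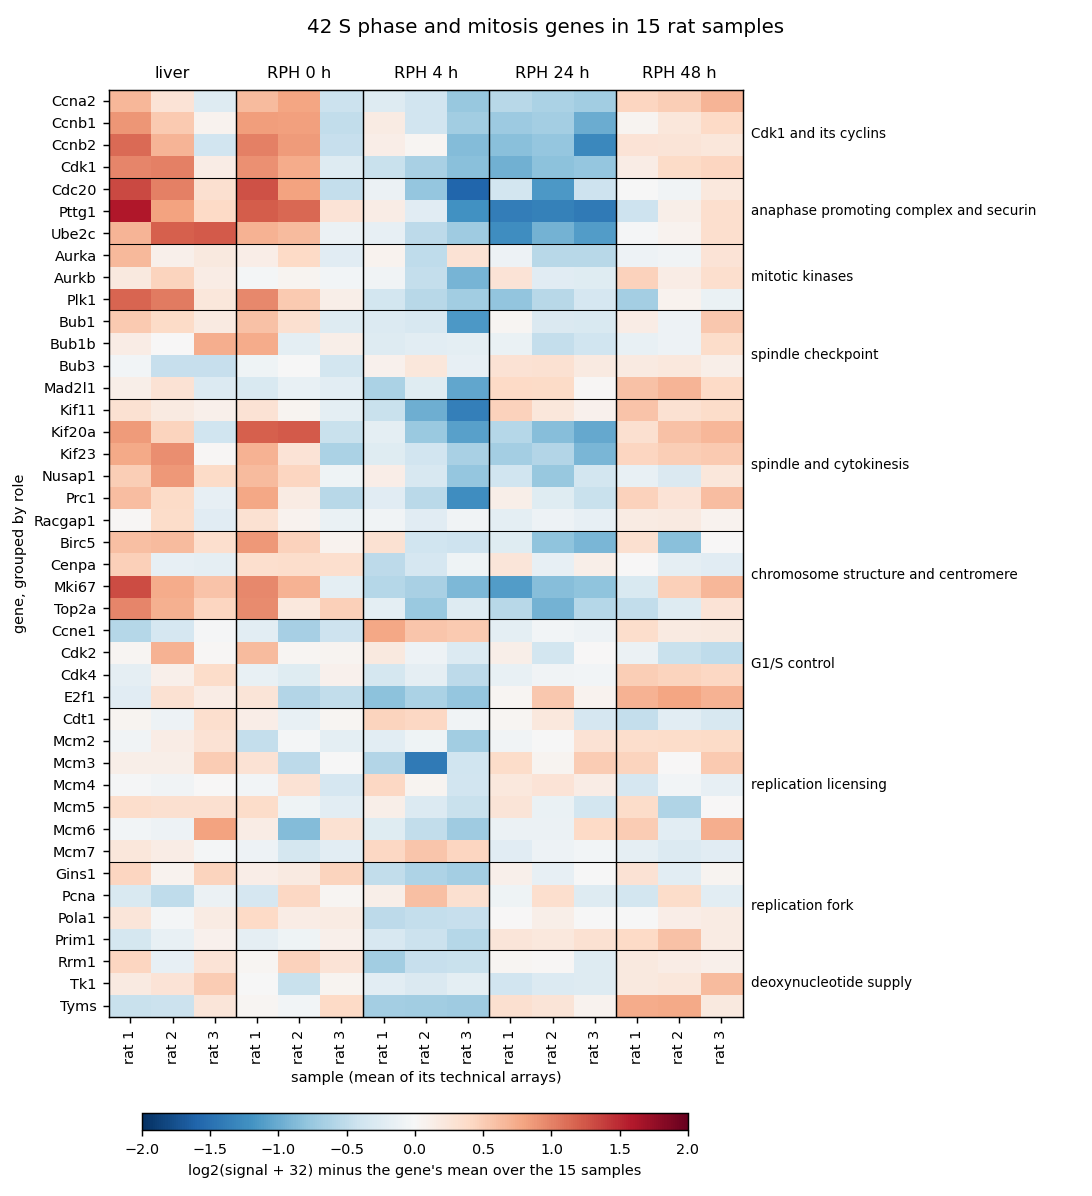
Heat map of 42 members (rows, grouped by role) in 15 samples (columns, liver and then RPH by time), coloured by log2(signal + 32) minus the gene's mean over the samples. Most mitotic genes are red in the livers and 0 h pellets of rats 1 and 2, blue at 4 h and 24 h and higher at 48 h. Exceptions include Bub3, Kif11 and Mad2l1, which are above their mean at 24 h. Of 18 S phase genes, 11 have their lowest cell mean at 4 h.

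Counts of members that passed the test (limma, Benjamini-Hochberg adjusted p under 0.05 over all 14217 genes) are given beside the share of all genes that passed in the same direction. At 4 h compared with 0 h, 16 of 42 members were lower and 2 were higher, where 16.8% of all genes were lower and 12.1% higher, and the median log2 fold change was -0.64 over members and -0.08 over all genes. At 24 h compared with 4 h, 9 members were higher and 3 lower, where 19.4% of all genes were higher and 10.5% lower. At 48 h compared with 24 h, 7 members were higher and none was lower, where 2.46% of all genes were higher and 1.32% lower. The median log2 fold change at that step was 0.37 over members and 0.01 over all genes, and 35 of 42 members had a positive value. No member had an unadjusted p under 0.05 in the lower direction there, and none was lower in the fit with rat as a replicate block. Over the whole culture, 48 h compared with 0 h, 7 members were higher and 2 lower, where 20.4% and 13.9% of all genes were. Against liver, 5 members were higher and 6 lower at 48 h, where 19.7% and 22% of all genes were. Between the 0 h pellet and liver no member passed (0 higher, 0 lower), where 0.127% of all genes were higher and 1.01% lower. In that comparison 3 members (Mcm7, Tk1 and Ube2c) had an unadjusted p under 0.05, all lower at 0 h, and a fit with rat as a replicate block also called 0 members. Leaving out any of the 6 samples in turn left 0 calls there too.

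Split by phase, the 16 members lower at 4 h than at 0 h were 12 G2 and M members and 4 S phase members, and the 2 higher ones were S phase members. Of the 9 members higher at 24 h than at 4 h, 7 were S phase members, and of the 7 higher at 48 h than at 24 h, 6 were G2 and M members. Consecutive comparisons share a group (the 4 h and the 24 h samples), so a gene low at 4 h in these 3 rats counts in both. Differences between the 2 sets of genes were not tested.

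**Figure D3:**
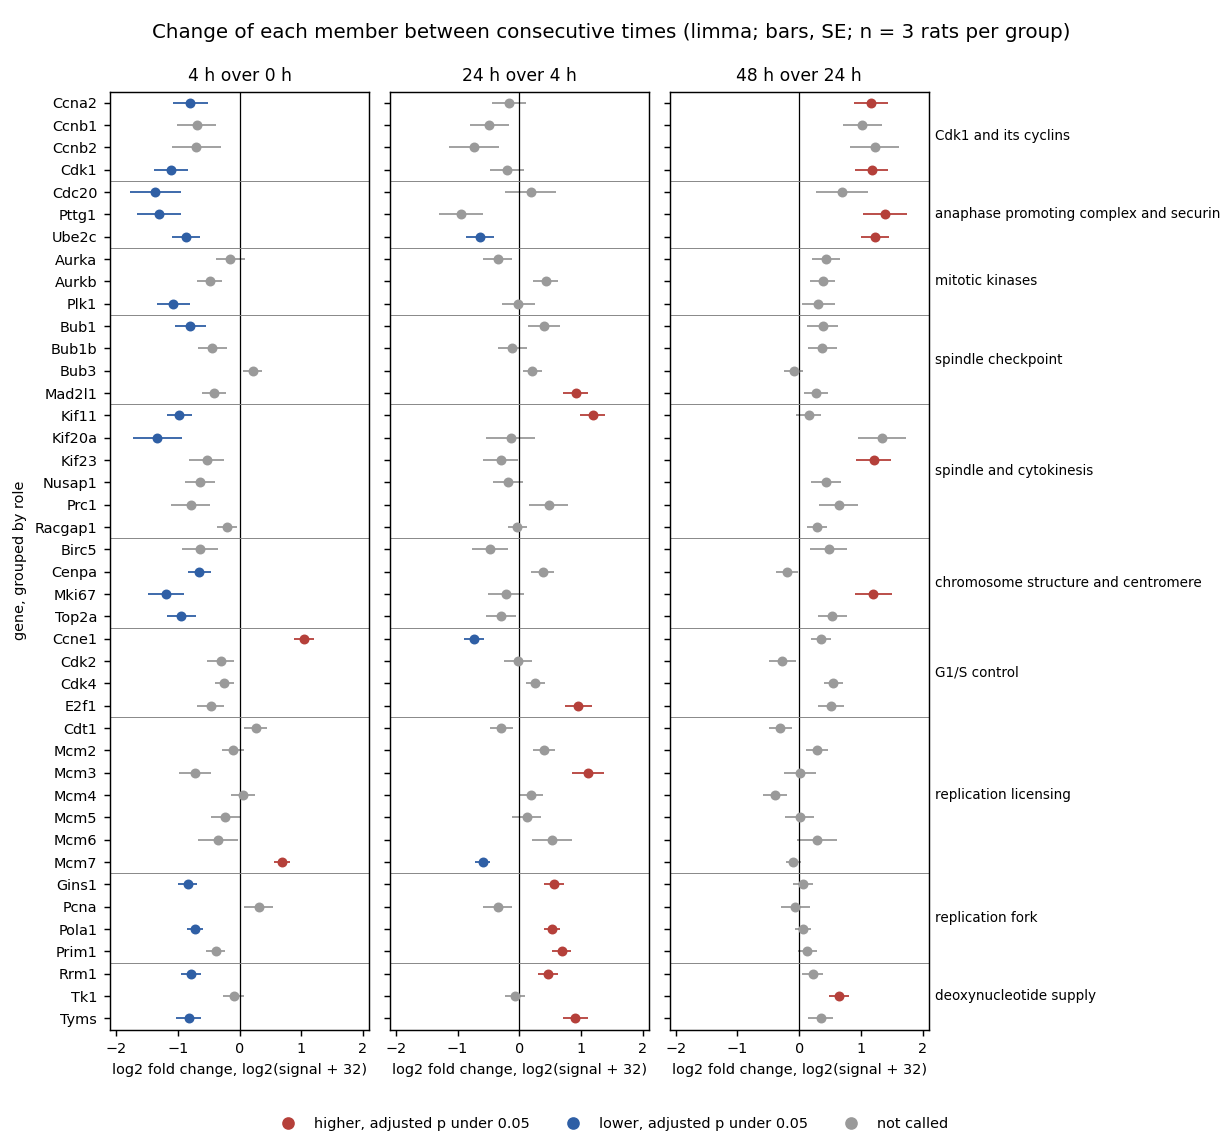
Log2 fold change (points) and its SE (bars) for each of 42 members at 4 h over 0 h, 24 h over 4 h and 48 h over 24 h, on the log2(signal + 32) scale, n = 3 rats per group; red and blue points passed limma's adjusted p under 0.05. Of the members, 16 are blue at 4 h over 0 h and 7 are red at 48 h over 24 h.

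The fit with rat as a replicate block, which uses that each rat gave every sample, called more members at most steps. At 4 h compared with 0 h it called 23 members lower in place of 16, adding Birc5, Ccnb1, Ccnb2, Mad2l1, Mcm3, Nusap1 and Prc1. At 24 h compared with 4 h it called 5 lower in place of 3, adding Ccnb2 and Pttg1, and 8 higher in place of 9, without Rrm1. Between 48 h and 24 h it called 11 higher in place of 7, adding Ccnb1, Ccnb2, Cdk4 and Kif20a. At 48 h compared with 0 h it called 6 lower in place of 2, adding Birc5, Cdk2, Cenpa and Pttg1. Against liver, at 48 h, it called 6 higher and 8 lower in place of 5 and 6, adding Mad2l1 as higher and Birc5 and Pttg1 as lower. Calls over all 14217 genes rose too, to 4985 from 4109 at 4 h compared with 0 h. They went to 5059 from 4243 at 24 h compared with 4 h and to 885 from 538 at 48 h compared with 24 h. At 48 h they went to 5700 from 4869 against the pellet and to 6905 from 5920 against liver. Of these block calls, 40.2%, 63.9%, 65.6%, 58.3% and 45.9%, in that order, were higher. The count of members higher at 48 h than at 24 h fell with any sample left out: without any one of the 6 samples of the 24 h and 48 h groups, between 1 and 3 members were called higher, and Ube2c was called in all 6, whereas Cdk1, Ccna2 and Tk1 were called in none of them. Of members lower at 4 h there were 11 without the 0 h pellet of rat 1 and 21 without that of rat 3, in place of 16. Of members lower at 48 h than at 0 h there were 0 without the 0 h pellet of rat 1, and 1 without the 48 h sample of rat 2 or of rat 3, in place of 2. A distribution-free exact test of 3 against 3 rats cannot go below p = 0.1, so no such test could reach the threshold.

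Cdk1 and its cyclins had their lowest means at 24 h. In rats 1, 2 and 3, Cdk1, the kinase that triggers mitosis, had signals of 270.5, 277 and 137 in liver, 256, 224 and 96.8 at 0 h, 79.8, 65.7 and 53.2 at 4 h, 46.6, 54.6 and 57.5 at 24 h and 138, 168 and 175 at 48 h. All 3 rats were lower at 4 h than any pellet and rat 3 was far below the other rats in liver and pellet, while at 48 h all 3 rats stood above every 4 h and 24 h value. Cdk1 fell at 4 h compared with 0 h (log2 fold change -1.11 ± 0.27, adjusted p = 0.00624; ± is SE for log2 fold changes and SD over 3 rats for mean signals) and rose at 48 h compared with 24 h (1.17 ± 0.27, adjusted p = 0.0249). The rise was not called when any single 24 h or 48 h sample was left out (adjusted p 0.0538 to 0.102). Under 1 of 11 other processing settings it was lost as well (adjusted p = 0.0563). The difference between 48 h and the pellet did not pass (-0.15 ± 0.27, adjusted p = 0.733).

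Ccnb1, cyclin B1, had signals of 215, 163 and 110.0 in liver, 206, 206 and 70.1 at 0 h, 124, 71.6 and 57.9 at 4 h, 52.5, 51.9 and 36.6 at 24 h and 109, 124 and 147 at 48 h. Its 0 h values overlapped those at 4 h through the low pellet of rat 3, and its 48 h values lay above all 24 h values. Without the block neither step passed the test, with -0.69 ± 0.32, adjusted p = 0.121 for 4 h compared with 0 h and 1.02 ± 0.32, adjusted p = 0.101 for 48 h compared with 24 h. With rat as a replicate block both did (adjusted p = 0.047 and adjusted p = 0.0267), and each difference had the same sign in all 3 rats. Ccnb2, cyclin B2 and the brightest gene of this role, had signals of 349.9, 246 and 101 in liver, 316, 279.9 and 95.1 at 0 h, 159, 147 and 63.2 at 4 h, 65.8, 70.0 and 39.3 at 24 h and 180.0, 175 and 172 at 48 h. The 3 rats lay within 172 to 180.0 at 48 h, against 39.3 to 70.0 at 24 h, and the change was 1.22 ± 0.40, adjusted p = 0.126, or adjusted p = 0.00734 with the block. Ccna2, cyclin A2, which acts in S phase and in G2, was lower at 4 h than at 0 h (-0.80 ± 0.28, adjusted p = 0.0436) and higher at 48 h than at 24 h (1.16 ± 0.28, adjusted p = 0.0297), and its 4 h values overlapped those of the pellets. The call at 4 h was lost under 4 of 11 other processing settings (adjusted p up to 0.11) and without any one of the 6 samples other than the 0 h pellet of rat 3.

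All 3 members of the anaphase promoting complex role, securin included, fell at 4 h. Pttg1, securin, had signals of 444, 240.0 and 176 in liver, 343, 313 and 157 at 0 h, 141, 103 and 36.1 at 4 h, 28.3, 31.0 and 30.5 at 24 h and 95.4, 140.2 and 168 at 48 h. At 24 h the 3 rats lay within 28.3 to 31.0, below every other sample. Pttg1 fell at 4 h (-1.31 ± 0.36, adjusted p = 0.0116) and rose at 48 h compared with 24 h (1.40 ± 0.36, adjusted p = 0.0409). Means were 135 ± 36.7 at 48 h and 29.9 ± 1.47 at 24 h (SD, n = 3 rats). Without the 0 h pellet of rat 1 or the 4 h sample of rat 3, the fall was not called (adjusted p up to 0.0634), and the rise was not called without any one of the samples other than the 48 h sample of rat 1. Under 2 of 11 other settings the rise was lost as well (adjusted p up to 0.0746).

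Ube2c, the ubiquitin-conjugating enzyme of the complex, had signals of 231, 340.1 and 348 in liver, 231, 218 and 117 at 0 h, 113, 80.0 and 66.5 at 4 h, 36.4, 53.4 and 44.7 at 24 h and 128, 139.8 and 171 at 48 h. Every 48 h sample lay above every 24 h sample and below every liver. It was lower at 4 h (-0.87 ± 0.22, adjusted p = 0.00824), lower again at 24 h (-0.63 ± 0.22, adjusted p = 0.0439) and higher at 48 h than at 24 h (1.23 ± 0.22, adjusted p = 0.00531), and at 48 h it was lower than in liver (-0.91 ± 0.22, adjusted p = 0.00454). The fall at 24 h was lost without any one of the 6 samples other than the 4 h sample of rat 3 (adjusted p up to 0.173), and the other 3 calls held with every sample left out in turn. Under 2 of 11 other settings the fall at 24 h was lost as well (adjusted p up to 0.0787). Cdc20, the activator of the complex that the spindle checkpoint holds back, had signals of 342, 271 and 156 in liver, 332, 230.4 and 81.6 at 0 h, 107, 58.3 and 18.3 at 4 h, 85.5, 36.2 and 80.7 at 24 h and 122, 116 and 143 at 48 h. Rat 3 had the lowest pellet value and the lowest 4 h value, and the groups overlapped. Cdc20, by its brightest probe set, had the largest fall of any member at 4 h (-1.36 ± 0.42, adjusted p = 0.0228). The fall was not called without the 0 h sample of rat 1 or rat 2 or without the 4 h sample of rat 2 or rat 3 (adjusted p up to 0.115). It was also lost under 1 of 11 other settings (adjusted p = 0.0767). Of 5 Cdc20 probe sets, the dimmer ones not used had log2 differences of -0.95, -0.94, -0.41 and -0.08 at 4 h.

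**Figure D4:**
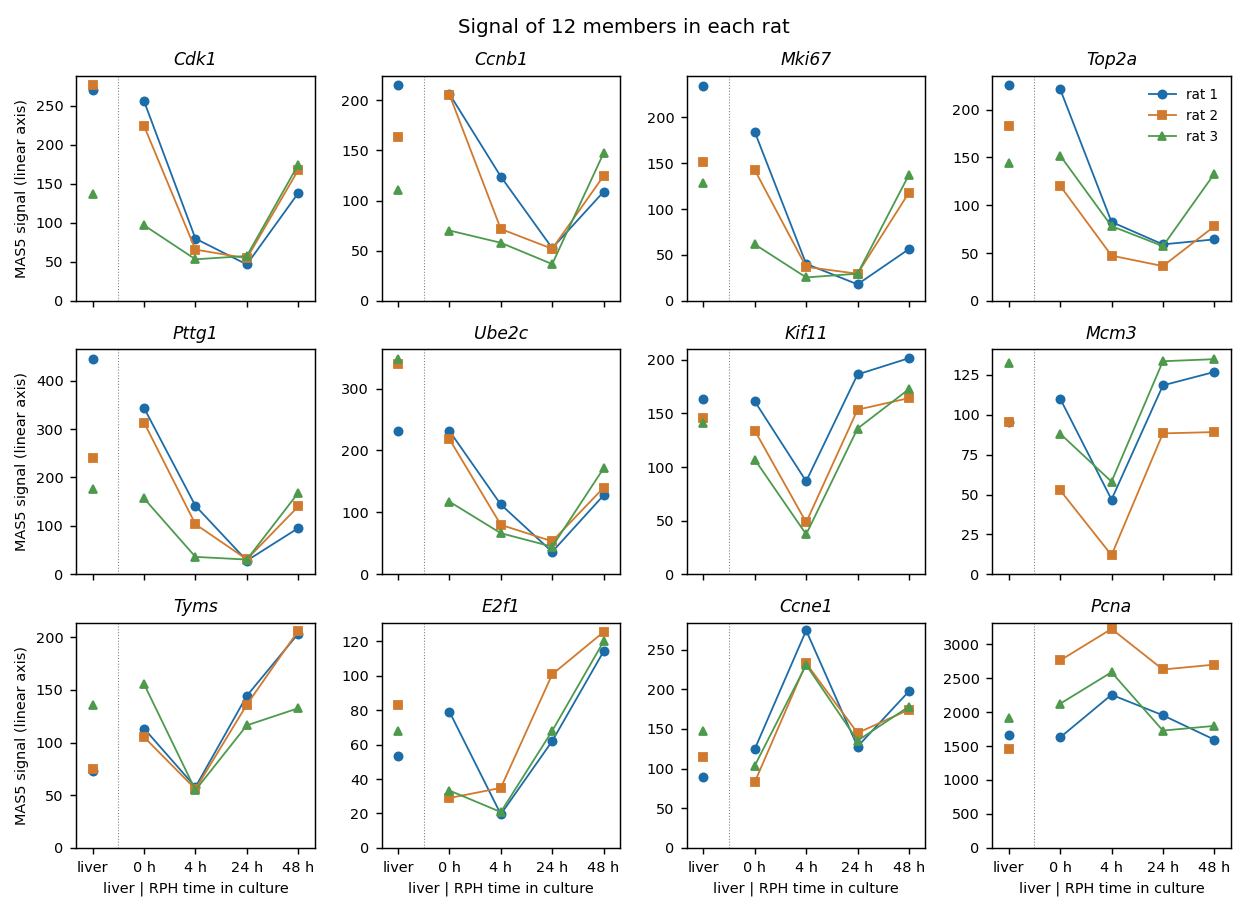
MAS5 signals (linear axis from 0) of 12 members in each of 3 rats (colours and symbols), with liver at the left and RPH at 0, 4, 24 and 48 h joined by lines. Cdk1, Ccnb1, Mki67, Top2a, Pttg1 and Ube2c are lowest at 24 h or 4 h and higher at 48 h, Kif11, Mcm3 and Tyms are lowest at 4 h, and Ccne1 is highest at 4 h in all 3 rats.

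Among the mitotic kinases Plk1, the polo-like kinase of mitotic entry and the spindle, had signals of 149.5, 134 and 64.5 in liver, 127, 88.9 and 58.6 at 0 h, 30.8, 24.1 and 17.5 at 4 h, 14.4, 24.2 and 35.4 at 24 h and 18.2, 59.2 and 42.8 at 48 h. It was lower at 4 h in all 3 rats without overlap (-1.08 ± 0.27, adjusted p = 0.00683). Its log2 fold change at 48 h compared with 24 h, 0.31, did not pass with or without the block, nor did that of Cdc20, 0.69. At 48 h Plk1 was lower than in liver (-1.06 ± 0.27, adjusted p = 0.00538) and in the pellet (-0.79 ± 0.27, adjusted p = 0.0331). Rat 1 had the lowest 48 h value and the highest liver and pellet values, and the call against the pellet was lost without the 0 h sample of rat 1 or rat 2 or the 48 h sample of rat 1 or rat 3 (adjusted p up to 0.15). Aurkb, the kinase of the chromosomal passenger complex, had signals of 108, 129 and 101 in liver, 82.8, 90.7 and 82.3 at 0 h, 80.6, 53.5 and 29.6 at 4 h, 110.0, 70.3 and 69.0 at 24 h and 132, 99.3 and 119 at 48 h. Its values lay between 29.6 and 132 throughout, and neither Aurkb nor Aurka, the kinase of the spindle poles, passed in any of the 6 comparisons.

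The spindle checkpoint genes did not move together. Bub3, which carries checkpoint proteins to kinetochores, was the brightest member and had signals of 2304, 1716 and 1713 in liver, 2240.1, 2373 and 1828 at 0 h, 2535, 2809 and 2129 at 4 h, 2921, 2963 and 2699 at 24 h and 2695, 2754 and 2597 at 48 h. At 48 h all 3 rats were above all livers (0.50 ± 0.16, adjusted p = 0.0188). A second, dim Bub3 probe set had a log2 difference of -0.05 there, and averaging the probe sets took the call away (adjusted p = 0.156). The call was also lost without the liver of rat 2 or rat 3 or the 48 h sample of rat 2 (adjusted p up to 0.0747). Mad2l1, the Mad2 protein that inhibits Cdc20, had signals of 108, 126 and 78.3 in liver, 77.6, 83.6 and 78.6 at 0 h, 52.7, 76.5 and 30.8 at 4 h, 138, 139.5 and 99.1 at 24 h and 160.2, 178 and 138 at 48 h. It was higher at 24 h than at 4 h in all 3 rats without overlap (0.91 ± 0.20, adjusted p = 0.00259) and higher at 48 h than in the pellet (0.77 ± 0.20, adjusted p = 0.00682). Bub1, a checkpoint kinase, was lower at 4 h than at 0 h (-0.80 ± 0.26, adjusted p = 0.0287), a call lost without the 0 h sample of rat 1 or rat 2 or the 4 h sample of rat 3. Under 1 of 11 other settings it was lost as well (adjusted p = 0.0903). Bub1b stayed dim, with sample values of 6.11 to 57.5, and passed nowhere.

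Genes of the spindle and of cytokinesis split between both time courses. Kif11, the kinesin that pushes spindle poles apart, had signals of 164, 146 and 141 in liver, 161, 134 and 107 at 0 h, 86.8, 48.4 and 37.3 at 4 h, 186, 153 and 136 at 24 h and 201, 164 and 173 at 48 h. Every 4 h sample was below every other sample. Kif11 fell at 4 h (-0.98 ± 0.20, adjusted p = 0.00215) and rose at 24 h compared with 4 h (1.19 ± 0.20, adjusted p = 0.000442), the largest rise of a member at that step, and at 48 h its difference from 24 h was 0.15. Both calls held when any single sample was left out.

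Kif20a, a kinesin of the central spindle, had signals of 126, 93.1 and 31.7 in liver, 155, 160.3 and 31.2 at 0 h, 40.8, 16.4 and 5.88 at 4 h, 23.3, 13.6 and 7.82 at 24 h and 70.2, 93.9 and 97.7 at 48 h. Rats 1 and 2 were high in the pellet and rat 3 was near the 4 h values, so the groups overlapped. It was lower at 4 h (-1.34 ± 0.40, adjusted p = 0.0189), and its log2 fold change at 48 h compared with 24 h, 1.34, passed only with the block (adjusted p = 0.0157). The fall was not called without the 0 h sample of rat 1 or rat 2 or the 4 h sample of rat 2 or rat 3 (adjusted p up to 0.0884). Under 2 of 11 other settings it was lost as well (adjusted p up to 0.107). Kif23, the kinesin of the centralspindlin complex of cytokinesis, had signals of 109, 124 and 52.3 in liver, 102, 69.3 and 22.8 at 0 h, 40.0, 31.6 and 24.5 at 4 h, 20.2, 25.4 and 12.6 at 24 h and 81.7, 83.7 and 89.2 at 48 h. The 48 h samples lay within 81.7 to 89.2 and above all 24 h samples (1.21 ± 0.28, adjusted p = 0.0258), but the rise was called without the 24 h sample of rat 2 and lost without any one of the other 5. The rise was also lost under 2 of 11 other settings (adjusted p up to 0.0992). A second, dimmer Kif23 probe set had a log2 difference of 0.27 at that step.

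Nusap1, a microtubule-bundling protein and the brightest gene of this role, had signals of 245, 335 and 226 in liver, 273, 232 and 153 at 0 h, 183, 127 and 83.3 at 4 h, 121, 85.7 and 123 at 24 h and 148, 129.7 and 198 at 48 h. At 48 h it was lower than in every liver (-0.65 ± 0.24, adjusted p = 0.041), and the call was lost under 5 of 11 other settings, with an adjusted p of 0.209 after centring each array on its median, and without the liver of rat 1 or rat 2 or the 48 h sample of rat 1 or rat 2. Prc1, which crosslinks the central spindle, and Racgap1, the partner of Kif23, passed in no comparison without the block. Prc1 had its lowest mean at 4 h and was lower than at 0 h with the block (adjusted p = 0.0115). Racgap1 passed in none with the block either, but its probe sets differed. A second Racgap1 probe set had a mean signal of 68.5, against 53.1 for the one used. Its log2 difference was -0.97 at 4 h compared with 0 h, against -0.20. At 48 h compared with 24 h it was 0.89, against 0.29. The second probe set was not tested on its own.

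Among genes of chromosome structure and the centromere, Mki67, which coats mitotic chromosomes and is the standard marker of cycling cells, had signals of 235, 151 and 128 in liver, 184, 143 and 61.6 at 0 h, 40.3, 37.0 and 25.5 at 4 h, 18.0, 29.6 and 29.6 at 24 h and 56.4, 118 and 138 at 48 h. All 4 h and 24 h samples were below all pellets, and at 48 h rat 1 stood below rats 2 and 3. Mki67 fell at 4 h (-1.19 ± 0.29, adjusted p = 0.00634) and rose at 48 h compared with 24 h (1.20 ± 0.29, adjusted p = 0.0329), and the rise stayed called without the 48 h sample of rat 1 and was lost without any one of the other 5 samples. Under 2 of 11 other settings the rise was lost as well (adjusted p up to 0.0600). Top2a, the topoisomerase that untangles sister chromatids and the brightest gene of this role, had signals of 226, 183 and 144 in liver, 222, 120.4 and 152 at 0 h, 82.5, 47.3 and 78.2 at 4 h, 59.0, 36.4 and 57.2 at 24 h and 64.3, 77.9 and 133 at 48 h. It fell at 4 h in all 3 rats without overlap (-0.94 ± 0.24, adjusted p = 0.00735) and its difference between 48 h and 24 h did not pass (0.54 ± 0.24, adjusted p = 0.316). At 48 h Top2a was lower than in liver (-0.86 ± 0.24, adjusted p = 0.00926, or adjusted p = 0.0586 after centring each array on its median) and lower than in the pellet (-0.70 ± 0.24, adjusted p = 0.0323). Values at 48 h and in the pellet overlapped, and that difference was not called without the 0 h sample of rat 1 or rat 3 or the 48 h sample of rat 1 or rat 2. Under 3 of 11 other settings it was lost as well (adjusted p up to 0.0814). Cenpa, the histone of the centromere, was lower at 4 h (-0.65 ± 0.19, adjusted p = 0.015) at signals of 15.3 to 30.8, against 53.0 to 60.6 in the pellet, and was not called without the 4 h sample of rat 1. Under 1 of 10 other settings its call was lost as well (adjusted p = 0.0542). Birc5, survivin, of the chromosomal passenger complex, had its lowest mean at 24 h and passed in no comparison without the block.

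Rat 3 was low in mitotic genes up to 24 h and not at 48 h. It had the lowest signal of the 3 rats for 20 of 24 G2 and M members in liver, for 20 at 0 h, for 19 at 4 h, for 13 at 24 h and for 5 at 48 h. Over all genes rat 3 was lowest for 36% in liver, 35.5% at 0 h, 40.4% at 4 h, 36.2% at 24 h and 34.8% at 48 h. The highest rat was a median of 2.15 times the lowest over G2 and M members at 0 h and 1.34 times at 48 h, and over S phase members 1.47 times at 0 h and 1.32 times at 48 h. Summed over the 23 G2 and M members other than the bright Bub3, signals in rats 1, 2 and 3 were 4265, 3740.5 and 2620.4 in liver, 4069, 3388 and 1856 at 0 h, 1879, 1378 and 981 at 4 h, 1532, 1263 and 1217 at 24 h and 2418, 2459 and 2916 at 48 h. Rat 3 was thus the lowest rat up to 24 h and the highest at 48 h. As 3 rats were sampled, differences between rats were not tested.

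The genes of G1/S control were led by Ccne1, cyclin E1, which with Cdk2 starts S phase. Ccne1 had signals of 89.4, 115 and 147 in liver, 125, 83.1 and 104 at 0 h, 274, 233 and 231 at 4 h, 128, 145 and 135 at 24 h and 198, 174 and 178 at 48 h. All 4 h samples lay above all other samples. It rose at 4 h (1.05 ± 0.16, adjusted p = 0.000179), was lower at 24 h than at 4 h (-0.73 ± 0.16, adjusted p = 0.00272) and remained above the pellet at 48 h (0.67 ± 0.16, adjusted p = 0.00428). These 3 calls held with every single sample left out and under all 11 other settings. It was also above liver at 48 h (0.55 ± 0.16, adjusted p = 0.0128), except when the liver of rat 1 was left out (adjusted p = 0.0646).

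E2f1, the E2F family member most tied to S phase entry, had signals of 53.1, 82.7 and 68.1 in liver, 79.1, 29.0 and 33.3 at 0 h, 19.5, 34.9 and 20.8 at 4 h, 62.0, 101 and 67.95 at 24 h and 114, 125 and 119.9 at 48 h. The 4 h samples were low and overlapped the pellets of rats 2 and 3, and all 48 h samples were above all pellets and livers. E2f1 rose at 24 h compared with 4 h (0.95 ± 0.22, adjusted p = 0.00332) and was the member with the largest rise at 48 h compared with the pellet (1.00 ± 0.22, adjusted p = 0.0019) and, among those higher in all 3 rats, with liver (0.66 ± 0.22, adjusted p = 0.0235). The call against liver was lost without the liver of rat 1 or the 48 h sample of rat 2 or rat 3 (adjusted p up to 0.103). Cdk4, the kinase of the D cyclins and the brightest gene of this role, had signals of 1411, 1735 and 2078 in liver, 1446, 1357 and 1699 at 0 h, 1247, 1412 and 1111 at 4 h, 1446, 1520.3 and 1538 at 24 h and 2275, 2205 and 2166 at 48 h. Its 48 h samples were above all other samples, and it was higher at 48 h than at 0 h (0.56 ± 0.15, adjusted p = 0.0104). Cdk2 was lower at 48 h than in liver (-0.61 ± 0.22, adjusted p = 0.04), a call that 5 of 11 other settings lost, as did leaving out the liver of rat 2 or the 48 h sample of rat 2 or rat 3.

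Replication licensing loads the Mcm2 to Mcm7 helicase onto origins. Its members took different courses although they form 1 complex. Mcm7, the brightest of them, had signals of 764, 725 and 629.7 in liver, 612, 501 and 559 at 0 h, 875, 976 and 882 at 4 h, 548, 604 and 626 at 24 h and 567, 540.0 and 563 at 48 h. The 4 h samples were above all others, with a rise at 4 h (0.69 ± 0.13, adjusted p = 0.000823) and a fall at 24 h (-0.60 ± 0.13, adjusted p = 0.00227). Mcm3 had signals of 95.2, 95.5 and 132 in liver, 110.2, 52.7 and 88.2 at 0 h, 46.9, 12.04 and 58.1 at 4 h, 118, 88.4 and 134 at 24 h and 127, 89.2 and 135 at 48 h. It was lowest at 4 h in every rat, most of all in rat 2, and rose at 24 h (1.11 ± 0.26, adjusted p = 0.00446). Mcm2 had signals of 184, 219.7 and 249 in liver, 132, 191 and 169 at 0 h, 173, 184 and 108 at 4 h, 185, 197 and 247 at 24 h and 259.9, 260.5 and 265 at 48 h. At 48 h the 3 rats lay within 259.9 to 265, above every pellet (0.60 ± 0.18, adjusted p = 0.0163), and the call was lost without the 0 h sample of rat 1 (adjusted p = 0.078). Under 2 of 11 other settings it was lost as well (adjusted p up to 0.0769). Mcm4, Mcm5, Mcm6 and Cdt1, which loads the helicase, passed in no comparison. At 48 h Mcm7 was lower than in liver (-0.34 ± 0.13, adjusted p = 0.0468), but not after centring each array on its median (adjusted p = 0.901), nor without any one of the 6 samples other than the liver of rat 3 (adjusted p up to 0.141).

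At the replication fork, Pcna, the sliding clamp, was bright and did not pass in any comparison. Its signals were 1665, 1456 and 1915 in liver, 1627, 2761 and 2124 at 0 h, 2255, 3226 and 2587 at 4 h, 1953, 2628 and 1728 at 24 h and 1595, 2699 and 1797 at 48 h. Rat 2 was the highest rat in every cell group, and the difference between 4 h and 0 h was 0.31 ± 0.23, adjusted p = 0.371. The primase and polymerase genes were lower at 4 h or rose after it. Prim1, a primase subunit, had signals of 285, 329 and 391 in liver, 325, 344 and 399.8 at 0 h, 290.0, 264 and 238 at 4 h, 442, 431 and 461 at 24 h and 497, 568 and 415 at 48 h. It rose at 24 h compared with 4 h (0.69 ± 0.15, adjusted p = 0.003) and at 48 h was above the livers (0.52 ± 0.15, adjusted p = 0.0132) and the pellets (0.43 ± 0.15, adjusted p = 0.0387), with the smallest differences in rat 3. The call against the pellet was lost under 4 of 11 other settings (adjusted p up to 0.24) and without the 0 h or the 48 h sample of rat 1 or rat 2, and that against liver without the liver of rat 1 or the 48 h sample of rat 2. Pola1, the catalytic subunit of polymerase alpha, fell at 4 h (-0.72 ± 0.13, adjusted p = 0.000627) and rose at 24 h (0.53 ± 0.13, adjusted p = 0.0059), with signals of 51.5 to 52.9 at 4 h, against 96.4 to 124 in the pellet. Gins1, of the GINS complex of the helicase, did the same (-0.84 ± 0.16, adjusted p = 0.00102 and 0.57 ± 0.16, adjusted p = 0.014) at signals of 15.1 to 23.1 at 4 h, and its rise was not called without the 24 h sample of rat 1 (adjusted p = 0.0547).

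For deoxynucleotide supply, Tyms, thymidylate synthase, had signals of 72.7, 74.8 and 136 in liver, 113, 105 and 156 at 0 h, 57.8, 55.9 and 54.8 at 4 h, 144, 136 and 116 at 24 h and 203, 206 and 133 at 48 h. The 4 h samples were close together and below all pellets. Tyms fell at 4 h (-0.82 ± 0.20, adjusted p = 0.00655), rose at 24 h (0.91 ± 0.20, adjusted p = 0.00312) and at 48 h was above liver in rats 1 and 2 but not in rat 3 (0.77 ± 0.20, adjusted p = 0.00675). Rrm1, the large subunit of ribonucleotide reductase, fell at 4 h (-0.79 ± 0.17, adjusted p = 0.00239), with signals of 193, 236 and 237 at 4 h against 344, 468 and 409 at 0 h. Its rise at 24 h (0.46 ± 0.17, adjusted p = 0.0496) was not called with rat as a replicate block (adjusted p = 0.0501) or under 7 of the 10 remaining settings, nor without any one of the 6 samples other than the 24 h sample of rat 3. Tk1, thymidine kinase and the brightest gene of this role, had signals of 512, 542 and 646 in liver, 442, 317 and 462 at 0 h, 379, 361 and 384 at 4 h, 334, 361 and 367 at 24 h and 511, 525 and 702 at 48 h. It rose at 48 h compared with 24 h (0.65 ± 0.16, adjusted p = 0.0393) and was above the pellet at 48 h (0.48 ± 0.16, adjusted p = 0.0331), except without the 0 h sample of rat 2 or the 48 h sample of rat 3 (adjusted p up to 0.161). Under 3 of 11 other settings the difference from the pellet was lost as well (adjusted p up to 0.157). The rise after 24 h was lost under 4 of 11 other settings and without liver in the model. A second Tk1 probe set of similar brightness had a log2 difference of -0.07 at 48 h compared with 0 h, and averaging the 3 Tk1 probe sets gave an adjusted p of 0.346 at 48 h compared with 24 h.

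Set beside the promoters printed above, members with an E2F match and members with a CHR match were counted in the 3 steps of the culture. Of 10 members with an E2F match, 4 were higher and 1 lower at 24 h than at 4 h, and 1 was higher at 48 h than at 24 h. Of the 26 without one, the counts were 4, 1 and 4. Of 18 members with a CHR match, 2 were higher and 1 lower at 24 h than at 4 h, and 4 were higher at 48 h than at 24 h. Of the 18 without a CHR match, 6 were higher and 1 lower at 24 h than at 4 h, and 1 was higher at 48 h than at 24 h. At 4 h compared with 0 h, 4 of 10 members with an E2F match and 10 of 26 without were lower, as were 8 of 18 with a CHR match and 6 of 18 without. Over all genes, 16.8% were lower at 4 h, 19.4% were higher and 10.5% lower at 24 h, and 2.46% were higher at 48 h than at 24 h. The differences were not tested.

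Comparisons with liver depended on scaling. Liver arrays had a median signal of 127, against 88.7 to 98.1 in the cell groups, and centring each array on its median moved the median log2 fold change of all genes at 48 h compared with liver to 0.22, against -0.08 without it. The sign turned for 11 of 42 members there and for 21 in the pellet compared with liver, none of them called. The share of called genes that were higher at 48 h went to 71.3% with centring, against 47.2%, and for members the split became 9 higher and 2 lower, against 5 and 6. For the pellet compared with liver, the same share went to 38.6% with centring, against 11.2%, with 0 members called either way. Without the liver of rat 1, the 48 h comparison called 2 members higher and 4 lower, without that of rat 2 it called 5 and 3, and without that of rat 3 it called 5 and 7. Without the 48 h sample of rat 2 it called 2 and 3. Plk1 and Ube2c, lower at 48 h than in liver, were called without any single liver and under all 11 other settings. So was Tyms, higher at 48 h than in liver. Ccne1, E2f1 and Prim1, also higher, were called under all 11 other settings but not without the liver of rat 1.

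Markers of other liver cell types changed over the same hours, in both directions. Over all genes, 16.8% were lower and 12.1% higher at 4 h than at 0 h. At 48 h compared with 24 h, 1.32% of all genes were lower and 2.46% higher, and 13.9% were lower at 48 h than at 0 h. Of 9 Kupffer cell markers measured (of 10 listed), 4 were lower at 4 h than at 0 h and 9 were lower at 48 h than at 24 h, and their summed signal was 21021 to 27059 in liver, 12738 to 16584 at 0 h, 6348 to 9026 at 4 h, 4530.3 to 6491 at 24 h and 1718 to 2350 at 48 h. Of 8 sinusoidal endothelial markers (of 10), 4 were lower at 4 h and 1 was lower at 48 h than at 24 h, with sums of 11362 to 13179 in liver, 6776 to 10130 at 0 h, 2895 to 4222 at 4 h, 1441 to 2168 at 24 h and 498 to 987 at 48 h. Of 10 stellate cell markers, 6 were lower and 1 higher at 4 h, and 1 was higher at 48 h than at 24 h, with sums of 7362 to 14208 in liver, 3214 to 7400 at 0 h, 892 to 2721 at 4 h, 1283 to 2458 at 24 h and 1734 to 3439 at 48 h. Of 6 cholangiocyte markers 1 was higher at 4 h and none was called at 48 h compared with 24 h, with sums of 1206 to 1224 in liver, 1078 to 1180.4 at 0 h, 1984 to 3273 at 4 h, 1707 to 1984 at 24 h and 2329.9 to 3263 at 48 h. At 48 h compared with 24 h the stellate and cholangiocyte sums were higher in all 3 rats, as the mitotic sum was, and the Kupffer and endothelial sums were lower. A sum is weighted to its brightest genes. Of single markers, 5 of 10 stellate and 5 of 6 cholangiocyte markers had a positive log2 fold change at that step (medians 0.13 and 0.29). The part of these cell types in the changes of the mitotic genes was not tested. Of 7 hepatocyte markers none passed limma's test at 4 h compared with 0 h (0 at an unadjusted p under 0.05), 1 was lower at 48 h than at 24 h and 5 were lower at 48 h than at 0 h, with sums of 189300 to 239660 at 0 h and 132520 to 153030 at 48 h. Of 6 erythroid markers none was called in cell comparisons, but the 0 h pellet of rat 1 had a sum of 12132, against 322 and 795 in rats 2 and 3 and 25594 to 59637 in liver. Of 10 lymphocyte markers 1 was lower at 4 h and none was called at 48 h compared with 24 h and of 3 neutrophil markers none was called at either step.

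**Figure D5:**
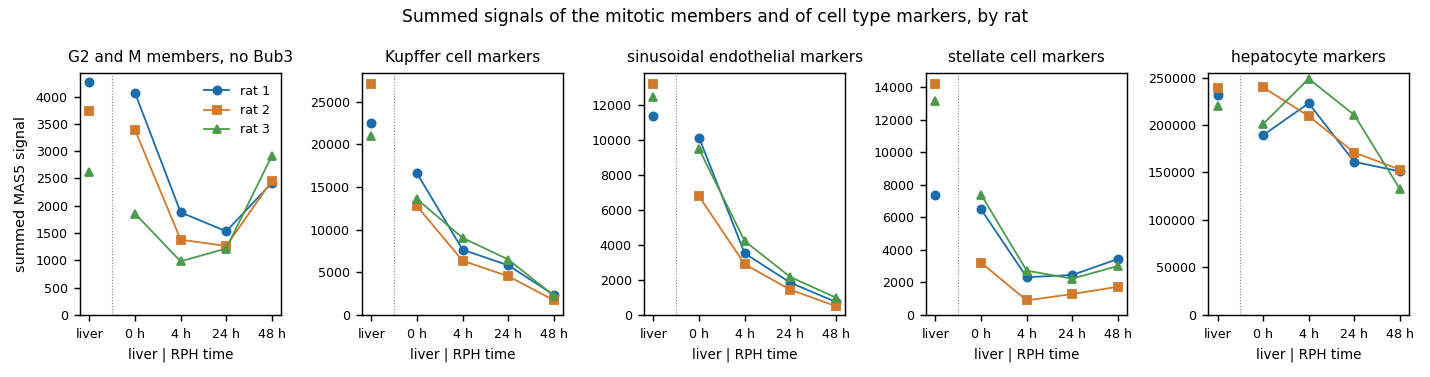
Summed MAS5 signal (linear axes from 0) of 23 G2 and M members without Bub3 and of the Kupffer cell, sinusoidal endothelial, stellate cell and hepatocyte markers, in 3 rats (colours and symbols), with liver at the left and RPH by time. The mitotic and stellate sums are higher at 48 h than at 24 h in all 3 rats, and the Kupffer and endothelial sums are lowest at 48 h. Of 10 stellate markers, 5 had a positive log2 fold change at 48 h compared with 24 h.

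The remaining genes of the same pathways were read from longer lists. Of 51 other S phase genes, 16 were lower and 5 higher at 4 h than at 0 h, 22 were higher and 1 lower at 24 h than at 4 h, and 2 were higher and 1 lower at 48 h than at 24 h, with median log2 fold changes of -0.34, 0.24 and 0.01. The 22 higher at 24 h were 43.1% of the list, against 19.4% of all genes, and the 16 lower at 4 h were 31.4%, against 16.8%. At 48 h compared with 0 h, 10 of them were higher and 8 lower (19.6% and 15.7%), close to the 20.4% and 13.9% of all genes. Clspn, claspin, which links the fork to the checkpoint kinase, was 189.6 ± 53.3 at 48 h and 29.2 ± 11.3 at 0 h (1.87 ± 0.18, adjusted p = 1.28e-06), above every pellet in all 3 rats. Ctps1, CTP synthase, and Rnaseh2a, a subunit of RNase H2, were also higher (log2 fold changes 1.72 and 1.27). Hells, a chromatin remodeller, was 394 ± 59.2 at 48 h and 1097 ± 97.2 at 0 h (-1.43 ± 0.24, adjusted p = 0.000256), below every pellet. Mcm10, a replication initiation factor, and Orc4, of the origin recognition complex, were lower as well (-1.38 and -1.17).

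Of 59 other G2 and M genes, 15 were lower and 5 higher at 4 h than at 0 h, 8 were higher and 3 lower at 24 h than at 4 h, and 4 were higher and none lower at 48 h than at 24 h, with medians of -0.37, 0.00 and 0.25. The 15 lower at 4 h were 25.4% of the list, against 16.8% of all genes, the 8 higher at 24 h were 13.6%, below the 19.4% of all genes, and the 4 higher at 48 h than at 24 h were 6.78%, against 2.46%. At 48 h compared with 0 h, 6 were higher and 2 lower (10.2% and 3.39%), below the shares of all genes. Zwint, a kinetochore protein, was 10306 ± 1864 at 48 h and 1709.5 ± 492 at 0 h (2.59 ± 0.22, adjusted p = 2.67e-07), Wee1, the kinase that inhibits Cdk1, was 501 ± 22.5 at 48 h and 152 ± 55.4 at 0 h (1.59 ± 0.31, adjusted p = 0.000875), and Gtse1, a microtubule-associated protein of G2 and S phase, had a log2 fold change of 1.33. For each of these 3 genes all 48 h samples were above all pellets. Cenpk, of the kinetochore, and Depdc1 were lower at 48 h (-0.95 and -0.77).

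Of 15 E2F family, pocket protein and MuvB genes, 8 were lower and 4 higher at 4 h than at 0 h (53.3% and 26.7%, against 16.8% and 12.1% of all genes). At 48 h compared with 0 h, 6 were lower and 4 higher (40% and 26.7%, against 13.9% and 20.4% of all genes). Rb1, the retinoblastoma protein that restrains E2F, was 127 ± 16.9 at 4 h and 750.5 ± 264 at 0 h (-2.25 ± 0.21, adjusted p = 1.72e-06) and remained low at 48 h (-1.70 ± 0.21, adjusted p = 1.23e-05). Its relative Rbl2 (p130) and Lin54, the MuvB subunit that binds the CHR, were also lower at 48 h (-0.96 and -0.67). E2f6 and E2f5, known as repressor members of the family, and Lin9, of MuvB, were higher (0.93, 0.61 and 0.68). Of 14 D cyclins and Cdk inhibitors and their relatives, 4 were lower and 2 higher at 4 h than at 0 h (28.6% and 14.3%, against 16.8% and 12.1% of all genes). At 48 h compared with 0 h, 2 were lower and 3 higher (14.3% and 21.4%, near the shares of all genes). Cdkn1a (p21), an inhibitor of Cdk2 and Cdk1, was 4819 ± 2719 at 4 h and 1237 ± 539.8 at 0 h (1.90 ± 0.48, adjusted p = 0.00739). Ccnd1, cyclin D1, was 1186 ± 282 at 4 h and 2124 ± 821 at 0 h (-0.77 ± 0.24, adjusted p = 0.0236), with overlapping values.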

How the data were processed

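Liver, freshly isolated hepatocytes (0 h) and hepatocytes cultured for 4, 24 and 48 h (3 rats) were hybridised to RG230-2 arrays from Affymetrix, 43 in number. The authors deposited MAS5 signal values, linear intensities with a 2% trimmed mean of 500.0 on every array, after leaving out 1 array at 4 h and 1 at 48 h. MAS5 in the array software and the affy package are both named in the sources, and no version is given. MAS5 keeps no depth, so precision rests on the number of arrays and rats. Dim signals keep a probe-level background, which compresses their fold changes.

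Of 31099 probe sets, 20826 map to 1 gene, 436 to several, 9780 to none and 57 are controls. Each gene was represented by its brightest probe set on the log2 scale (14217 genes). Technical arrays were averaged as log2(signal + 32), and groups were compared in 1 model over all 15 samples with limma 3.58.1 (R 4.3.3), with Benjamini-Hochberg adjustment and a threshold of 0.05. Tables and plots were made with Python 3.11.15, pandas 2.3.3 and matplotlib 3.10.9, and the limma code was tested on simulated data. No filter on low values was used. A filter on probe sets above the array median in at least 5 arrays kept 37 of 42 members and was an alternative, as were other offsets, scalings, summaries of technical arrays and probe sets, priors, sample sets and leaving out samples or rats. The rat number was an alternative replicate block. Same-numbered samples come from the same animal per the labels, and their deviations from group means had a median correlation of 0.33 (30 pairs), against -0.18 between rats (60 pairs). Deviations cancel out over the rats of a group, so a positive same-rat value forces a negative one between rats. The value between rats is thus no separate reference. Each rat gave 1 sample per group. The main fit has no term for the rat, so its p-values rest on the spread of rats within groups, pooled over all 15 samples. It treats samples of the same rat as independent.

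The members and all gene lists were chosen with earlier results of these data known. Values in every sample are given for Mki67, Top2a, Pcna, Cdk1 and Ccnb1, for up to 4 members called in each direction per comparison with the largest change among those moving the same way in all 3 rats, and for the brightest member of each role. From 3 pathway lists up to 3 genes called in each direction at 48 h compared with 0 h are named, and from the D cyclins and Cdk inhibitors Ccnd1 and Cdkn1a. Promoters are RefSeq windows of GRCr8 matched by symbol. Array probe sets were named from the platform annotation.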

Additional observations from a re-analysis of the deposited data

How the results depend on the processing

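None of the called member differences changed sign under any alternative, but members that were not called did, most under centring on the array median (21 of 42 in the pellet compared with liver, 11 at 48 h compared with liver) and quantile normalization (18 and 7). With rat as a replicate block, members higher at 48 h than at 24 h numbered 11, those lower at 24 h than at 4 h 5, and those lower at 48 h than at 0 h 6, and the only call lost was the rise of Rrm1 at 24 h. Calls over all genes, in both directions, also rose with the block at these steps. They went to 885 from 538, to 5059 from 4243 and to 5700 from 4869. With the replicate block and each array centred on its median, chosen after seeing the data, 12 members were higher and 3 lower at 48 h than in liver, 6 lower at 24 h than at 4 h and 5 lower at 48 h than at 0 h. Centring alone gave 9 higher and 2 lower at 48 h compared with liver. Quantile normalization gave 4 higher at 48 h than at 0 h and 4 higher at 48 h than at 24 h. With no offset, 1 member was lower at 48 h than at 0 h and 3 lower at 48 h than in liver. Members lower at 48 h than at 0 h were 4 with the median of technical arrays, 4 without liver in the model and 1 with the mean over all probe sets. The causes were not tested.

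With 1 sample or 1 rat left out, calls at 4 h compared with 0 h ranged over 2 to 2 higher and 5 to 21 lower, at 24 h compared with 4 h over 5 to 9 higher and 2 to 5 lower, at 48 h compared with 24 h over 0 to 4 higher and 0 to 0 lower, at 48 h compared with 0 h over 2 to 7 higher and 0 to 9 lower, and at 48 h compared with liver over 0 to 5 higher and 0 to 9 lower. The pellet compared with liver gave 0 throughout. Of single calls recomputed over all alternatives, 935 kept their side of the threshold and 248 lost it. Members under the array median, up to 27 of 42, are measured close to background, which limits what these arrays can resolve.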

Other observations

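Rrm2, the small subunit of ribonucleotide reductase, is covered only by probe sets shared with Rrm2l1, so its signal cannot be assigned to 1 gene. The brighter of these probe sets gave, in rats 1, 2 and 3, 743, 524 and 591 in liver, 688, 1090.3 and 289 at 0 h, 496, 742 and 439.8 at 4 h, 42.2, 102 and 64.9 at 24 h and 296, 381 and 435 at 48 h. All 24 h samples were below all other samples. No test was run on it.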
